A study of Homo sapiens with 9 samples.

Results

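The transcripts of 10 plasma protein genes were followed in 786-O cells, an established human line from a clear cell renal cell carcinoma (ccRCC) that lacks functional VHL, the protein that marks hypoxia-inducible factors for destruction. The genes were LBP, ITIH2, ITIH3, ITIH4, SERPINA1, FGA, FGB, FGG, TF and ALB, which are 10 of the 38019 genes in the count table. They were chosen by name, with their read counts in these same libraries already known, so their levels and differences between groups are described without a test. All cells carried a pLKO.1 lentivirus selected with puromycin. The shControl group carried a control hairpin, the shARNT group a hairpin against ARNT, the usual partner of HIF2α, and the shBMAL1 group a hairpin against BMAL1 (ARNTL in the table), the clock protein related to ARNT. The labels name 1 hairpin per target and do not say which of the 2 BMAL1 hairpins in the methods of the study was used, so loss of the target and other effects of that hairpin cannot be told apart. All 3 groups were grown in the same medium with fetal bovine serum. The labels give the genotype as WT for shControl and as a knockdown of the target for the other two. Each group had 3 libraries of stranded mRNA named as biological replicates, for 9 in all, and the labels do not tell separate infections from separate cultures of 1 infected pool, so p-values measure only the spread between these samples.

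Hepatocytes make most of the protein in blood plasma. They secrete carriers such as albumin and transferrin, protease inhibitors such as α1-antitrypsin, the fibrinogen chains that form clots, and the inter-α-trypsin inhibitor heavy chains that become attached to hyaluronan. Several of these genes belong to the acute phase response, in which interleukin 6 acts through gp130, JAK kinases and STAT3, and interleukin 1 acts in part through C/EBP factors. Their promoters are also known to be read by liver-enriched factors such as HNF4A and FOXA2.

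Libraries held 33793045 to 35444735 reads each. Reads from mitochondrial genes made up 5.46 to 7.14% of the shControl libraries, 7.59 to 8.74% of the shARNT libraries and 8.71 to 9.66% of the shBMAL1 libraries, and the part of this shift in the results below was not tested. ARNT was lower in shARNT (log2 fold change -0.94, SE 0.07, adjusted p = 8.7e-35), and ARNTL was lower in shBMAL1 (log2 fold change -1.23, SE 0.11, adjusted p = 2.52e-25). In RNA, each hairpin was also accompanied by a smaller fall of the other target. At the protein level, the paper instead saw a slight rise of the other target. ARNTL had a log2 fold change of -0.26 in shARNT (adjusted p = 0.0293) and ARNT one of -0.23 in shBMAL1 (adjusted p = 0.0187), and both of these calls were lost when either of 2 single libraries was left out. Renal markers were present in every library, with PAX8, a lineage factor of renal epithelium, between 6884 and 10476 normalised counts. Of 13 renal carcinoma markers, 12 had a mean of at least 10 in each group.

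The proximal promoters of the members are shown first, because they carry the known sequence elements of liver-type genes. Promoters of 8 of the 10 members were taken from RefSeq (GRCh38.p14), 11 in all, and the motif search does not cover the other two, LBP and ITIH2. The 250 bases before the transcript start were searched on both strands for 5 short motifs. Printed here are the promoters of the 3 fibrinogen genes, which lie side by side on chromosome 4, of ALB, the classical hepatocyte gene, and of SERPINA1, the member with most reads. Capitals mark every match to any of the 5 motifs. For SERPINA1 and FGB, which have more than 1 promoter in RefSeq, one was printed.
SERPINA1 (chr14:94388603-94388852, reverse strand): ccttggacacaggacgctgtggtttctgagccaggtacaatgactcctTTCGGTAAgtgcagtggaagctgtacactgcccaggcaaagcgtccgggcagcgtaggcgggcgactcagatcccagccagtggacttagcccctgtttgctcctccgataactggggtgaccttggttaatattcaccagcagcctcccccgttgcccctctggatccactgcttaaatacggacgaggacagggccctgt
FGA (chr4:154590743-154590992, reverse strand): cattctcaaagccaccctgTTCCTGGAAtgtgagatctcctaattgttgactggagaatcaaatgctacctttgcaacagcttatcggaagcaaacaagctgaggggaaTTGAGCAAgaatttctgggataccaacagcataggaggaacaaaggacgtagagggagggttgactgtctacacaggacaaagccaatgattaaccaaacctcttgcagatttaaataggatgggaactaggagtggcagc
FGB (chr4:154562761-154563010, forward strand): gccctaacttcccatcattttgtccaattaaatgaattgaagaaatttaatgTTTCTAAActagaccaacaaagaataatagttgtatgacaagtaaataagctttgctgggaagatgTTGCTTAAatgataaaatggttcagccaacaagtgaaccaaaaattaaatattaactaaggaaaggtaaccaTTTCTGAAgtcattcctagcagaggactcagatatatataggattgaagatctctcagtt
FGG (chr4:154612657-154612906, reverse strand): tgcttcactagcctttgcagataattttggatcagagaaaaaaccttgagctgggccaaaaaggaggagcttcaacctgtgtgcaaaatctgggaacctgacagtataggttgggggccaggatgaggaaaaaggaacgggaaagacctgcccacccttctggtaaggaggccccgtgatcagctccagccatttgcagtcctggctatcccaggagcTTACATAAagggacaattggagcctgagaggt
ALB (chr4:73404037-73404286, forward strand): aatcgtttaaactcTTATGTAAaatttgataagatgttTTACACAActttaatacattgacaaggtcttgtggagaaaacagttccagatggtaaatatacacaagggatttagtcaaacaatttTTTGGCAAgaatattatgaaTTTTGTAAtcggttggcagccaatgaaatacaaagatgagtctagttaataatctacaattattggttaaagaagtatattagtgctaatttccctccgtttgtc

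A C/EBP pattern, TTNNGNAA, occurred 4 times in the ALB window, 3 times in that of FGB and 1 time each in the printed windows of SERPINA1, FGA and FGG. It also occurred in ITIH4 (-214) and in 1 of the TF windows (-98), and not in ITIH3, the other TF window or the upstream SERPINA1 window, and it is a common pattern, held by 33.2% of all 35114 promoters of the same length. A STAT pattern, TTCNNNGAA, was found in FGA (first base at -231 from the transcript start) and ITIH4 (-74), against 6.57% of all promoters. The E-box CACGTG, which BMAL1 with CLOCK binds, was found in none of the 11 windows, against 6.35% of all promoters. The cores of the hypoxia response element were ACGTG, which lies inside CACGTG, and GCGTG. The first was found in none of the windows (18.5% of all promoters), and the second in those of ITIH3 (-19) and of the upstream SERPINA1 promoter (-15), against 32.2%. The FGB windows overlap each other. For the upstream FGB window and the upstream TF window, the bases after the start were not found in a transcript of the gene. The 11 windows are therefore not 11 separate promoters of members. These are matches of letters in a short window and not measured binding sites.

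Read counts were divided by size factors to give normalised counts. A count of 3 reads per library was taken as the floor, since a value of 2 was more frequent in the table than a value of 1 (10580 against 9804), as counting both reads of a pair would give. SERPINA1 encodes α1-antitrypsin, the main inhibitor of neutrophil elastase, and was by far the most abundant member. Its normalised counts were 5538, 5453 and 5689 in shControl, 2492, 2595 and 2381 in shARNT, and 11013, 10116 and 12448 in shBMAL1. The 3 groups did not overlap, and the knockdowns lay on opposite sides of the control. The log2 fold change was -1.16 (SE 0.06) in shARNT and 1.01 (SE 0.08) in shBMAL1, a 2.01-fold higher level, and between the knockdowns it was 2.17 (SE 0.08). The gene lies on chromosome 14 (GRCh37 chr14:94843084-94857030, reverse strand).

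LBP encodes lipopolysaccharide-binding protein, which hands bacterial lipopolysaccharide to CD14. It had normalised counts of 3.02, 13 and 3.03 in shControl, 35.1, 51.1 and 19.9 in shARNT, and 285, 272 and 171 in shBMAL1. Each shARNT library lay above each control library, and each shBMAL1 library above each shARNT library, but control replicate 2 stood above the other controls. The log2 fold change was 2.48 (SE 0.61) in shARNT and 5.25 (SE 0.62) in shBMAL1. Without control replicate 2 these values were 3.55 and 6.32. Between the knockdowns, where no control enters, the log2 fold change was 2.78 (SE 0.28). The gene is at GRCh37 chr20:36974885-37005655 on the forward strand.

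The inter-α-trypsin inhibitor heavy chains stabilise hyaluronan matrices. ITIH2 (GRCh37 chr10:7745279-7791483, forward strand) had counts of 11.1, 12 and 9.1 in shControl, 29.2, 35.4 and 35.8 in shARNT, and 472, 429 and 446 in shBMAL1. The libraries of each group stayed close together and the groups did not overlap, with log2 fold changes of 1.64 (SE 0.48) in shARNT and 5.39 (SE 0.29) in shBMAL1, or 41.8-fold in the latter. ITIH4, an acute phase member of the family (GRCh37 chr3:52846978-52864704, reverse strand), had counts of 50.3, 55.0 and 47.5 in shControl, 74.0, 62.9 and 59.6 in shARNT, and 427, 335 and 330 in shBMAL1. The shARNT libraries lay just above the controls (log2 fold change 0.37, SE 0.28) and the shBMAL1 libraries well above both (2.83, SE 0.20, against the controls). ITIH4 overlaps ITIH4-AS1 on the other strand and a second protein-coding model on its own strand, and some of its values were fractional, so its reads may in part be shared. ITIH3, its neighbour, had no read in any shControl or shARNT library and 2 reads in each shBMAL1 library, which is below the floor, and no fold is given.

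Fibrinogen is built from the chains encoded by FGA, FGB and FGG, and all 3 genes were close to or at 0 in the controls. FGB had 2, 3 and 0 reads in the controls, 2, 2 and 6 with shARNT, and 44, 44 and 49 with shBMAL1. Summed over libraries and set against depth, FGB was 27.7 times higher in shBMAL1 than in shControl (exact 95% interval 11.6 to 86.7) and 13.9 times higher than in shARNT (7.35 to 29.7). FGG had 0, 0 and 1 reads in the controls, 3, 2 and 0 with shARNT, and 21, 49 and 33 with shBMAL1. Its ratio to shARNT was 21.0 (8.69 to 65.9), while the ratio to shControl rested on 1 control read (104, interval 18.3 to 4156). In shARNT both genes stayed near the floor, and no fold against the controls is given. The intervals describe counting error only, are no test of these chosen genes, and treat every read as independent, so they are too narrow where both reads of a pair were counted. Without control replicate 2 the log2 fold change of FGB in shBMAL1 moved from 4.76 to 5.49, and without control replicate 3 to 4.17 (that of FGG from 6.57 to 7.53). Against shARNT, the log2 fold change of FGB was 3.79, or 4.53 without shARNT replicate 3, and that of FGG was 4.38, or 5.11 without shARNT replicate 1.

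FGA, which lies between FGB and FGG, remained at or near the floor, with no read in shControl, 2, 0 and 0 reads in shARNT, and 2, 2 and 4 in shBMAL1. The 3 genes span GRCh37 chr4:155484163-155493959 for FGB (forward strand), chr4:155504278-155511894 for FGA (reverse strand) and chr4:155525286-155534119 for FGG (reverse strand).

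TF encodes transferrin, the iron carrier of plasma. Its counts were 16.1, 11 and 10.1 in shControl, 35.1, 31.4 and 24.8 in shARNT, and 75.5, 73.6 and 109 in shBMAL1, and the 3 groups did not overlap. The log2 fold change was 1.30 (SE 0.48) in shARNT and 2.79 (SE 0.38) in shBMAL1. The TF model (GRCh37 chr3:133464884-133515485, forward strand) overlaps SRPRB over 12619 bases on the same strand. SRPRB, a subunit of the signal recognition particle receptor, had log2 fold changes of 0.31 in shARNT (adjusted p = 0.000179) and 0.20 in shBMAL1 (adjusted p = 0.0498, not called without control replicate 1 or 3 or without shBMAL1 replicate 2 or 3). ALB, the most abundant protein of plasma and the defining product of hepatocytes, had 2, 0 and 1 reads in the controls, 0, 3 and 2 with shARNT, and 1, 6 and 0 with shBMAL1. The ALB groups overlapped and no fold is given (GRCh37 chr4:74262831-74287199, forward strand).

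**Figure D1:**
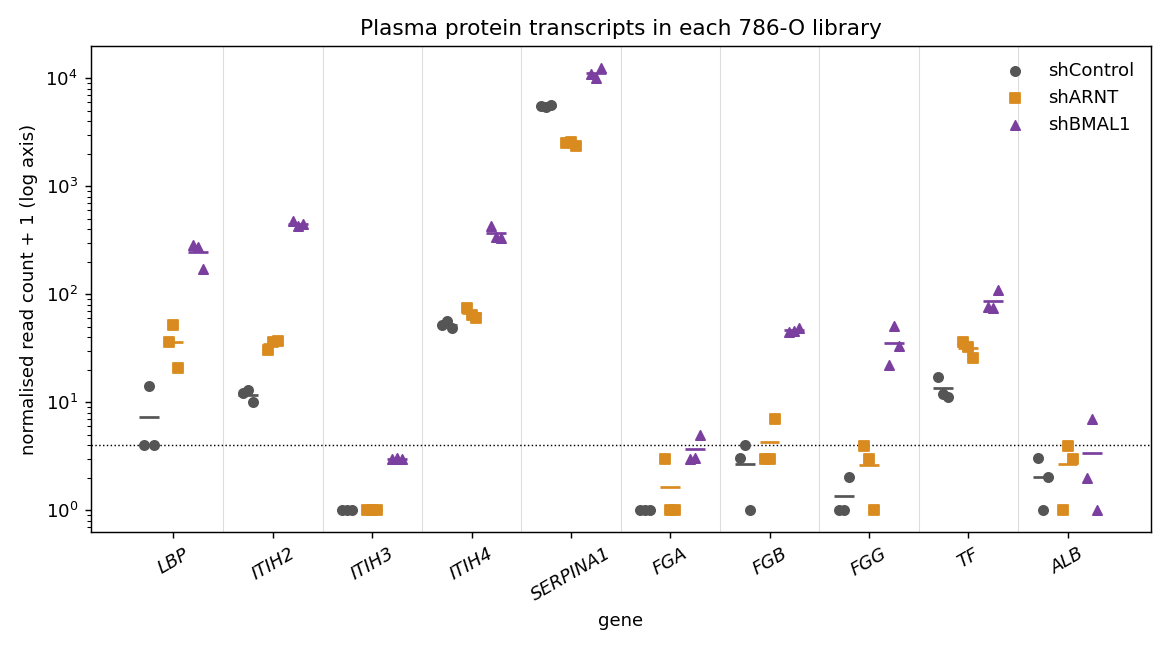
Normalised read count plus 1 (log axis) of each member gene in each library, with 3 points per group and a bar at the group mean; the dotted line marks 3 reads. SERPINA1 lies between 2381 and 12448 counts with shARNT lowest, the other genes above the line are highest in shBMAL1, and ITIH3, FGA and ALB stay near the line.

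In shARNT against shControl, 5 members passed the low-count filter, of which 3 were called higher and 1 lower, against 16.5% and 19.0% of all 15170 genes tested. In shBMAL1 against shControl, 8 members passed, of which 7 were called higher and 0 lower, against 17.4% and 19.4% of 19045 genes. Between shBMAL1 and shARNT, 7 members passed and all 7 were called higher, against 17.2% called higher and 18.0% called lower of 18192 genes. The members were chosen on these same contrasts, and a gene with reads in 1 group only could pass the filter only by differing, so nothing is read from these counts. The comparisons share libraries, and the values of each are given side by side above.

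**Figure D2:**
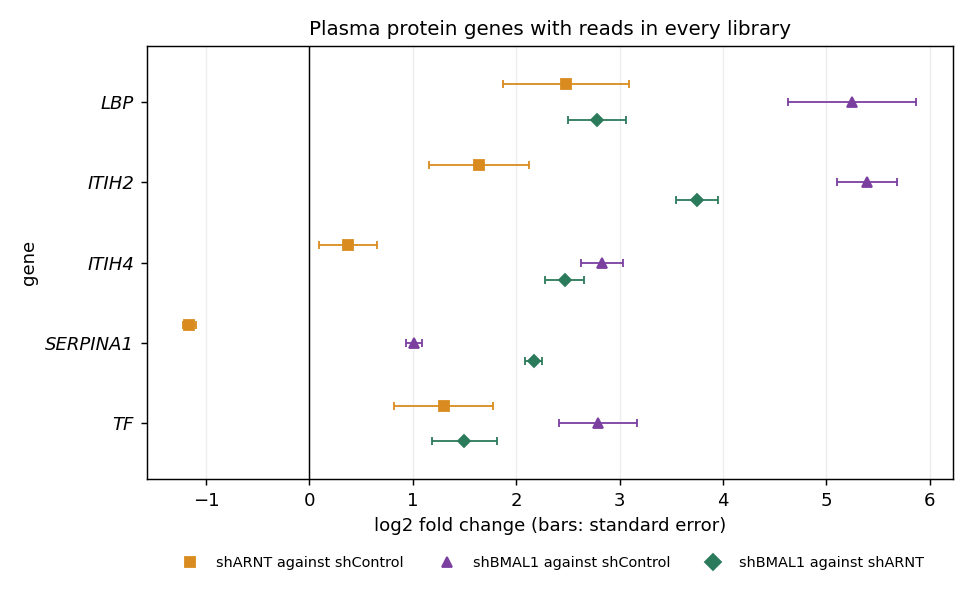
Log2 fold change with its standard error for the 5 members with reads in all 9 libraries, in each of the 3 comparisons. SERPINA1 alone lies below 0 in shARNT (-1.16), and the shBMAL1 values run from 1.01 for SERPINA1 to 5.39 for ITIH2.

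Levels of different genes were compared per kilobase of the canonical transcript. In shControl, SERPINA1 stood at 1849.7 ± 39.8 normalised counts per kilobase, ITIH4 at 15.5 ± 1.15, LBP at 3.48 ± 3.15 and ITIH2 at 3.41 ± 0.470 (SD, n = 3), so that LBP and ITIH2 did not differ beyond their spread. In shBMAL1 the levels per kilobase were 3723 ± 391 for SERPINA1, 143 ± 6.79 for ITIH2, 133 ± 34.1 for LBP and 111 ± 16.7 for ITIH4, and the ranges of ITIH2 and LBP, and of LBP and ITIH4, overlapped. FGG (16.5 ± 6.93) and FGB (12.5 ± 0.635) followed, also with overlapping ranges. These levels depend on the length used. Per kilobase of coding sequence, shBMAL1 stood at 8925 ± 938 for SERPINA1, 30.8 ± 1.57 for FGB and 25.2 ± 10.6 for FGG, with the order of the fibrinogen means exchanged. TF moved most, from 4.26 ± 0.980 per kilobase of its canonical transcript of 20166 bases to 41.0 ± 9.43 per kilobase of coding sequence. SERPINA1 took 98.5% of the reads of all members in the controls, 93.6% with shARNT and 90.0% with shBMAL1. The other 9 genes together held 2.38 ± 0.314, 4.99 ± 0.616 and 35.8 ± 2.17 CPM (reads scaled to library size) in these groups (SD, n = 3).

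The members' loci were compared with their closest annotated genes, 26 of which were found in the table. In shBMAL1 against shControl, 6 of the 20 tested neighbours were called higher, SERPINA10 among them, and 4 lower, and in shARNT 2 of 14 higher and 4 lower, beside 17.4% and 19.4% of all genes in shBMAL1 and 16.5% and 19.0% in shARNT. ITIH5, a family member next to ITIH2, had 1811, 1801 and 1644 normalised counts in shControl, 1341, 1261 and 1141 in shARNT, and 4881, 4348 and 4739 in shBMAL1. Its 3 groups were separate, with a fall in shARNT (log2 fold change -0.49, SE 0.08, adjusted p = 1.55e-08) and a rise in shBMAL1 (1.41, SE 0.08, adjusted p = 1.29e-74). KIN, a DNA- and RNA-binding protein on the other side of ITIH2, rose by a log2 fold change of 0.45 in shBMAL1 (adjusted p = 0.000232), and SFMBT2, a Polycomb protein beyond ITIH5, by 0.69 (adjusted p = 0.0016). Near SERPINA1 lies SERPINA10, the gene of the protein Z-dependent protease inhibitor. Its normalised counts were 1.01, 0 and 0 in shControl, 0, 0 and 0.994 in shARNT, and 18.9, 7.05 and 3.92 in shBMAL1. The gene could pass the low-count filter only through shBMAL1, and its call is given no weight. SERPINA11 and SERPINA9 had normalised counts between 0 and 3.03. PLRG1, the splicing factor gene next to FGB, lay between 1587 and 1706 in shControl and between 1581 and 1935 in shBMAL1. Neighbours also fell. BPI, next to LBP, had at most 6.05 normalised counts. KIAA1755, beyond BPI, had a log2 fold change of -1.85 in shARNT (adjusted p = 0.00552). In shBMAL1, KIAA1755 had -1.08 (adjusted p = 0.0575, called in 1 of the 6 fits that left out a library). RALGAPB, on the other side of LBP, fell by 0.27 in shBMAL1 (adjusted p = 0.000792), NEK4, near ITIH3, by 0.23 (adjusted p = 0.02, not called without control replicate 1) and TOPBP1, near TF, by 0.20 (adjusted p = 0.00613). AFP and AFM, which follow ALB, had at most 19.9 and 3.02.

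A list of 68 further plasma protein genes was then examined, of which 38 had no read in any shControl library, 31 in any shARNT library and 29 in any shBMAL1 library. In shARNT, 15 passed the filter, 1 was called higher and 3 lower, and the median log2 fold change was 0.12, beside 0.00276 for every gene tested. In shBMAL1, 25 passed, 8 were called higher, SERPINA10 among them, and 2 lower, and the median was 0.26, beside 0.0155. Over all genes, 16.5% were called higher and 19.0% lower in shARNT, and 17.4% and 19.4% in shBMAL1.

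SERPINF2, encoding α2-antiplasmin, the main inhibitor of plasmin, had counts of 44.3, 44 and 36.4 in shControl, 32.2, 38.3 and 35.8 in shARNT, and 643, 589 and 567 in shBMAL1. The log2 fold change in shBMAL1 was 3.85 (SE 0.18, adjusted p = 1.18e-98), and no change was called in shARNT (-0.23, SE 0.34, adjusted p = 0.686). AMBP encodes the precursor of bikunin, the light chain of the inter-α-trypsin inhibitor. It had counts of 69.4, 52.0 and 35.4 in shControl, 88.7, 101 and 94.4 in shARNT, and 137, 170.3 and 163 in shBMAL1, and it rose in both knockdowns (log2 fold change 0.86, adjusted p = 0.00962, and 1.58, adjusted p = 5.34e-09). It was the only one of the 68 called higher in shARNT. In shBMAL1, APOH, a phospholipid-binding apolipoprotein, rose by 1.74 on the log2 scale (adjusted p = 9.26e-07), and the copper carrier ceruloplasmin (CP) by 0.65 (adjusted p = 2.49e-18). AGT, the precursor of angiotensin, and PROS1, the anticoagulant protein S, rose by 0.58 (adjusted p = 0.00665) and 0.26 (adjusted p = 0.0167).

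Genes that fell included the acute phase gene SAA1, with log2 fold changes of -0.73 in shARNT (adjusted p = 0.0233) and -0.71 in shBMAL1 (adjusted p = 0.0373), and coagulation factor XII (F12), with -0.40 in shBMAL1 (adjusted p = 0.00935). The SAA1 calls were lost without control replicate 2 in both knockdowns, without shARNT replicate 3 in shARNT, and without control replicate 3 or shBMAL1 replicate 3 in shBMAL1, and that of F12 without control replicate 3. SERPINA6, encoding corticosteroid-binding globulin and next to SERPINA1, had a log2 fold change of -0.93 in shARNT (adjusted p = 0.0636) and of 0.28 in shBMAL1 (adjusted p = 0.573). The SERPINA6 call in shARNT was lost in 5 of the 6 fits that left out 1 library, the exception being shARNT replicate 1. The standard carriers and acute phase proteins HP, ORM1, APOA2, CRP and APCS were among those without a read in shControl, in shARNT and in shBMAL1.

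**Figure D3:**
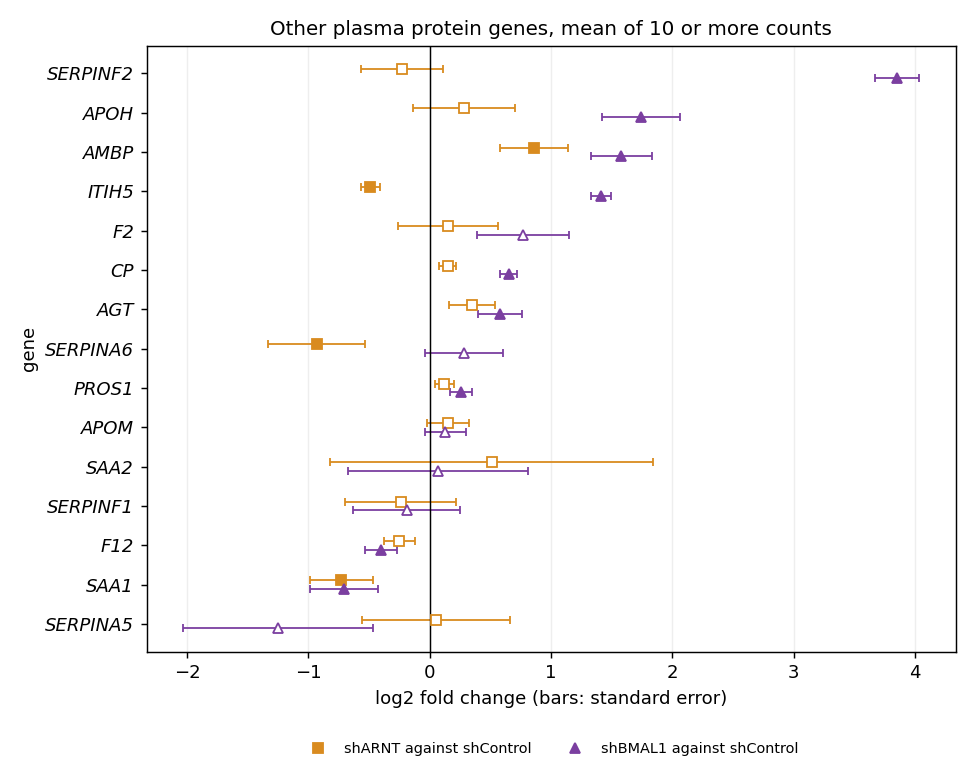
Log2 fold change with its standard error against shControl for the 15 other plasma protein genes that averaged 10 or more normalised counts; filled symbols are called at an adjusted p under 0.1. SERPINF2 stands apart in shBMAL1 (3.85, against -0.23 in shARNT), and only ITIH5 is called in opposite directions in the 2 knockdowns.

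Among 13 liver-enriched transcription factors, 5 of the 9 tested in shBMAL1 were called higher and 0 lower, and 4 of 7 in shARNT were higher and 0 lower. Over all genes, 17.4% were higher and 19.4% lower in shBMAL1, and 16.5% and 19.0% in shARNT. NR1H4, the bile acid receptor FXR, had counts of 119, 116 and 113 in shControl, 342, 342 and 293 in shARNT, and 629.5, 734 and 690.4 in shBMAL1. It rose by 1.49 on the log2 scale with shARNT (adjusted p = 2.11e-19) and by 2.56 with shBMAL1 (adjusted p = 3.74e-74), and more in shBMAL1 by the direct comparison (1.07, SE 0.12, adjusted p = 8.36e-18). FOXA2, a pioneer factor, rose by 0.67 in shBMAL1 (adjusted p = 2.14e-08), with -0.09 in shARNT (adjusted p = 0.606). HNF4A had no read in 8 of the 9 libraries and 1.01 normalised counts in the other, and its relative HNF4G, with 477 to 636 in shControl and shARNT and 475 to 584 in shBMAL1, was not called in either knockdown. FOXA1 rose by 1.08 in shARNT (adjusted p = 0.00106) and 0.81 in shBMAL1 (adjusted p = 0.0144, not called without shBMAL1 replicate 3). ONECUT2 rose in shARNT (1.46, adjusted p = 0.0473), a call lost without control replicate 3, shARNT replicate 1 or shARNT replicate 2.

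The acute phase signalling genes moved in both directions. Of 13, 6 were called higher and 3 lower in shARNT, and 4 higher and 4 lower in shBMAL1, beside 16.5% and 19.0% of all genes in shARNT and 17.4% and 19.4% in shBMAL1. IL6, the cytokine that drives the fibrinogen genes in liver, fell from 246, 288 and 249 counts in shControl to 143, 119.8 and 123 in shARNT and 81.4, 93.7 and 77.4 in shBMAL1, a log2 difference of -1.01 (adjusted p = 1.95e-08) for shARNT and one of -1.63 (adjusted p = 2.53e-17) for shBMAL1. The related cytokine LIF fell by 0.51 (adjusted p = 3.32e-10) and 0.32 (adjusted p = 0.00227) on the log2 scale. The receptor subunit gp130 (IL6ST) rose by 0.23 (adjusted p = 0.000202) and 0.46 (adjusted p = 2.38e-06), and the interleukin 1 receptor IL1R1 by 0.88 (adjusted p = 8.35e-14) and 1.27 (adjusted p = 2.35e-24). CEBPD rose in both knockdowns (0.54, adjusted p = 0.00482, and 1.00, adjusted p = 2.48e-09), whereas CEBPB rose in shARNT (0.49, adjusted p = 0.00104) and fell in shBMAL1 (-0.46, adjusted p = 0.0106, not called without control replicate 3). STAT3 was not called in either (-0.03, adjusted p = 0.818, and 0.05, adjusted p = 0.68), and SOCS3, a STAT3 target that feeds back on the pathway, rose in shARNT (0.40, adjusted p = 0.0698, not called without control replicate 1 or 2 or without shARNT replicate 1 or 3) and was not called in shBMAL1 (-0.17, adjusted p = 0.573). The kinase JAK1 fell in shARNT (-0.18, adjusted p = 0.00168), and JAK2 in shBMAL1 (-0.28, adjusted p = 0.0743), the latter called in only 1 of the 6 fits that left out a library.

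**Figure D4:**
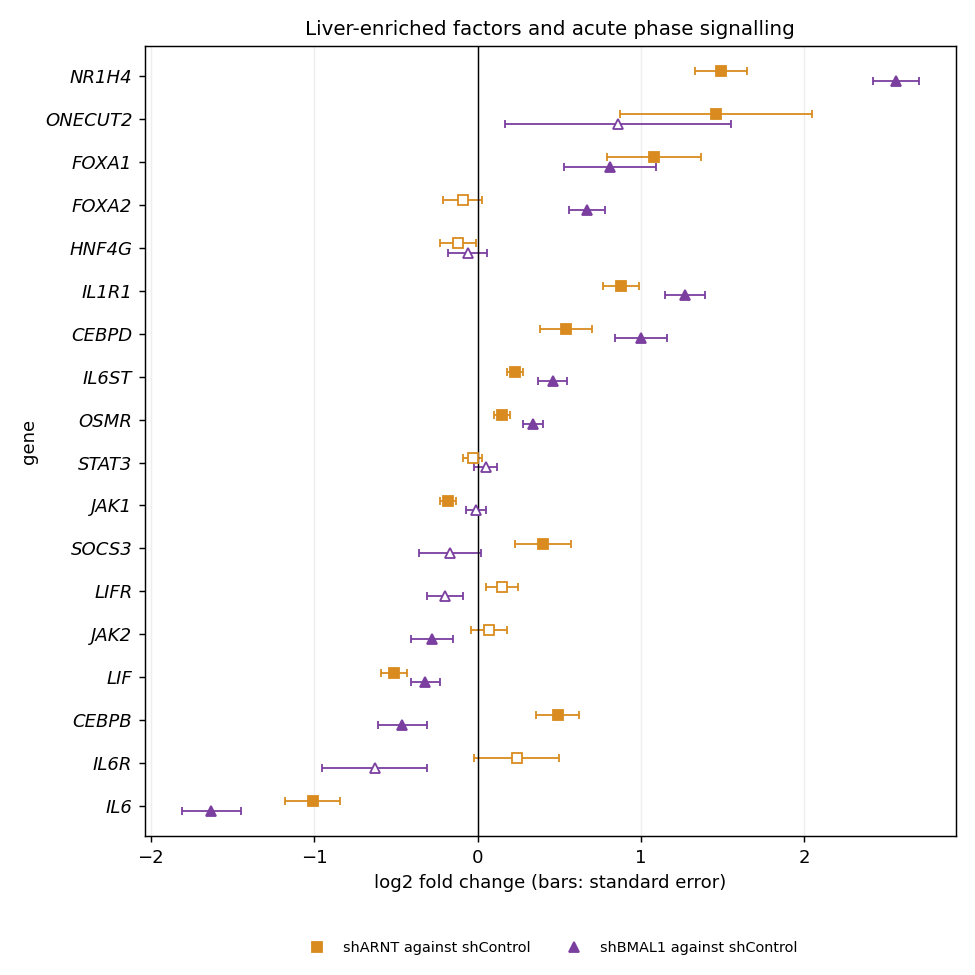
Log2 fold change with its standard error against shControl for 18 genes that averaged 10 or more normalised counts, 5 liver-enriched transcription factors above and the 13 acute phase signalling genes below; filled symbols are called at an adjusted p under 0.1. NR1H4 is highest in shBMAL1 (2.56) and IL6 lowest (-1.63), and CEBPB lies on opposite sides of 0 in the 2 knockdowns.

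Of 15 receptors and partners of the plasma proteins, 12 were tested in shARNT, with 1 called higher and 4 lower, and 13 in shBMAL1, with 2 higher and 8 lower. Over all genes, 16.5% were called higher and 19.0% lower in shARNT, and 17.4% and 19.4% in shBMAL1. Among the hyaluronan partners of the heavy chains, TNFAIP6 (TSG-6), the enzyme that transfers heavy chains to hyaluronan, had counts of 163, 227 and 188 in shControl, 152, 139 and 152 in shARNT, and 447, 512 and 479 in shBMAL1, a rise of 1.31 on the log2 scale in shBMAL1 (SE 0.15, adjusted p = 1.04e-17). The hyaluronan synthase genes HAS2 and HAS3 fell by 0.90 (adjusted p = 2.28e-06) and 0.69 (adjusted p = 4.24e-13) in shBMAL1. The hyaluronan receptor CD44 fell from between 22020 and 26036 counts to between 8914 and 12423 (log2 fold change -1.21, SE 0.10, adjusted p = 2.36e-32), and PTX3, which binds the heavy chains, had -1.23 (SE 0.19, adjusted p = 8.57e-10). The fibrin cross-linking enzyme of tissues, TGM2, fell from a mean of 41649.7 ± 1026 counts to 12248 ± 972 in shARNT and 18789.8 ± 1242 in shBMAL1 (SD, n = 3), with log2 fold changes of -1.76 (adjusted p = 4.65e-200) and -1.15 (adjusted p = 7.37e-69). The transferrin receptor TFRC fell by 0.45 (adjusted p = 6.45e-19) and 0.33 (adjusted p = 4.1e-07). FCGRT, the receptor that recycles albumin, rose by 1.24 in shBMAL1 (adjusted p = 5.09e-10), with -0.16 in shARNT (adjusted p = 0.677). For LBP, CD14 had normalised counts between 7.04 and 13.9 in all libraries, and TLR2 fell in shBMAL1 by 1.26 (adjusted p = 6.84e-05) and in shARNT by 0.78 (adjusted p = 0.0272, not called without control replicate 1 or shARNT replicate 3).

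The difference between the knockdowns was tested directly in these lists, with no control library in the fit. Of the 68 other plasma protein genes, 24 passed the filter, 7 were called higher in shBMAL1 than in shARNT and 0 lower. Over all genes tested, 17.2% were called higher and 18.0% lower. SERPINA10 was among the 7, and it could pass the filter only through shBMAL1. SERPINF2 was higher in shBMAL1 by 4.08 on the log2 scale (SE 0.19, adjusted p = 1.6e-103), APOH by 1.46 (SE 0.31, adjusted p = 1.81e-05), SERPINA6 by 1.22 (SE 0.39, adjusted p = 0.00908) and AMBP by 0.72 (SE 0.20, adjusted p = 0.00191). Of the 26 liver factor and signalling genes, 22 passed, 10 were higher and 6 lower. FOXA2 was higher by 0.77 (adjusted p = 4.05e-10), while the interleukin 6 receptor IL6R had a log2 fold change of -0.87 (adjusted p = 0.0141), SOCS3 one of -0.56 (adjusted p = 0.0081) and IL6 one of -0.62 (adjusted p = 0.0182, not called without shARNT replicate 1). Of the 15 receptors and partners, 13 passed, 4 were higher and 5 lower. FCGRT was higher by 1.41 (adjusted p = 2.51e-11) and TGM2 by 0.62 (adjusted p = 2.91e-15), and CD44 had -1.25 (adjusted p = 1.01e-37), PTX3 -0.99 (adjusted p = 4.7e-06) and HAS2 -0.63 (adjusted p = 0.00246).

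Markers of other cells were given the same reading. Of 15 hepatocyte markers, 5, 8 and 6 had no read in any library of shControl, shARNT and shBMAL1, with TAT and SLCO1B1 among those at 0 in all 9 libraries. The summed level of the list was 2494 to 2839 normalised counts in shControl, 2138 to 2250 in shARNT and 3453 to 3538 in shBMAL1, most of it from CPS1, the urea cycle enzyme (2360.5 to 2710, 1969 to 2108 and 3048 to 3174). Of the hepatocyte markers, 3 were tested in shARNT, with 1 called higher, 1 lower and 1 not called, and 7 in shBMAL1, with 3 higher, 0 lower and 4 not called, beside 16.5% higher and 19.0% lower of all genes in shARNT and 17.4% and 19.4% in shBMAL1. CPS1 fell in shARNT (log2 fold change -0.34, adjusted p = 1.21e-05) and rose in shBMAL1 (0.29, adjusted p = 0.000729). UGT2B7, a glucuronosyltransferase of liver and kidney, rose in shBMAL1 (2.56, SE 0.27, adjusted p = 4.33e-19), and CYP2E1, an ethanol-metabolising enzyme, rose in shBMAL1 (1.28, adjusted p = 3.64e-08) and in shARNT (0.72, adjusted p = 0.00976, not called without shARNT replicate 1). Of the renal carcinoma markers, 12 were tested, with 3 called higher and 4 lower in shARNT and 6 higher and 4 lower in shBMAL1, against the same shares of all genes. The kidney cadherins CDH16 and CDH6 rose in shBMAL1 (2.30, adjusted p = 1.68e-142, and 1.72, adjusted p = 9.16e-170). They also rose in shARNT (0.25, adjusted p = 0.0928, and 1.01, adjusted p = 6.43e-78), but there the CDH16 call was lost under 8 of 12 alternatives. PAX8 fell in shBMAL1 (-0.49, adjusted p = 1.73e-11). The HIF target CA9 fell in shARNT (-2.85, adjusted p = 6.9e-19) and rose in shBMAL1 (1.05, adjusted p = 2.15e-08). Of 9 blood and endothelial markers, 6, 6 and 7 had no read in the 3 groups, and their summed level was at most 20 normalised counts in any library. In bulk RNA, more cells with a transcript and more transcript per cell cannot be told apart.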

How the data were processed

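Stranded mRNA libraries of 9 cultures of 786-O cells were analysed, in 3 groups taken from the sample titles. The values were estimated counts per gene deposited by the authors, not normalised. The methods of the study name GRCh37, SeqMan NGen and ArrayStar for them, while the submitters' processing notes list STAR, DESeq2 and hg38, so the build and counter behind the table are not settled. Of 38074 rows, those sharing a name were summed, leaving 38019 genes. The value 0.009 stood for 0 (46.28% of cells). The counts were rounded, since 6.14% of the other values were fractional. Total depth was 33793045 to 35444735 reads per library.

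Each comparison was fitted on its 6 libraries across all genes in DESeq2 version 1.42.0 (R version 4.3.3) with median-of-ratios size factors, a two-sided Wald test and Benjamini-Hochberg adjustment, called at an adjusted p under 0.1. Adjusted p-values in the text come from this fit. Normalised counts use size factors over all 9 libraries. Ratios of low counts carry exact 95% intervals for counting error only. Coordinates are from GENCODE v44 lifted to GRCh37, and promoters, with the order of neighbours, from RefSeq GRCh38.p14. Member promoters were read from the reference, and no other source was searched. The scripts were tested on simulated data.

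The members and the gene lists (other plasma proteins, liver factors and acute phase signalling, receptors and partners, and markers of hepatocytes, renal carcinoma, and blood and endothelium) were chosen with earlier results of these data known. Named genes were all members, ARNT and ARNTL, up to 4 called genes with the largest rise and fall per list and comparison with a mean of at least 10 counts, relatives and neighbours of members, and for each member with a mean of at least 10 the 2 genes with the nearest profile. PROS1, CP, AGT, HP, ORM1, APOA2, CRP, APCS, CD14, STAT3, IL6ST, HNF4A, HNF4G, TAT and SLCO1B1 lay outside this rule and were picked after their values were seen. Some list genes are counted but not reported by name here. Alternatives were edgeR version 4.0.16 (quasi-likelihood, TMM), DESeq2 with TMM factors, a filter of 10 counts in 3 libraries, an adjusted p under 0.05, a fit of all 9 libraries, the replicate number as a block, each library left out, and other transcript lengths.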

Additional observations from a re-analysis of the deposited data

Results flagged for a closer look

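Among the genes named by rule, members left out, those called in opposite directions in the knockdowns were singled out. Each had a difference between shBMAL1 and shARNT that was itself called by DESeq2. All other genes of the table were not searched in this way. The log2 fold change of shBMAL1 against shARNT was 1.90 for ITIH5, -0.95 for CEBPB, 1.70 for TNFAIP6, -0.88 for HAS3 and 0.63 for CPS1. It was 3.90 for CA9, a marker of clear cell carcinoma, and 1.29 for SFMBT2, the Polycomb gene near ITIH2. For LOC100507487 and BRINP1, picked for profiles most like that of SERPINA1, it was 1.93 and 1.82, and their choice by profile makes this a description. The shARNT calls of TNFAIP6 (log2 fold change -0.38, adjusted p = 0.0997) and SFMBT2 (-0.59, adjusted p = 0.061) lay close to the threshold and were lost when most single libraries were left out, and that of HAS3 (0.20) was lost without control replicate 1 or shARNT replicate 2. CEBPB was not called in shBMAL1 without control replicate 3.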

How the results depend on the processing

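The 7 members above the floor kept their direction under every alternative run, and ITIH3, FGA and ALB were not rerun. Leaving out 1 library moved the log2 fold change of LBP in shARNT to between 2.12 and 3.55 and in shBMAL1 to between 4.91 and 6.32, that of FGB in shBMAL1 to between 4.17 and 5.49, and that of FGG in shBMAL1 to between 6.08 and 7.53. Replicate numbers did not pair the libraries (correlation of deviations for libraries with the same number -0.154 to 0.105, and not every sample correlated best with its own number). With the replicate number as a replicate block, other plasma protein genes called in shARNT fell from 4 to 2, and members called in shARNT from 4 to 3. Leaving out 1 library gave 3 to 4 receptor and partner genes called in shARNT, against 5, with 3 without control replicate 1, shARNT replicate 2 or shARNT replicate 3. The causes were not tested. Other counts of members, other plasma proteins, liver factors with acute phase signalling, and receptors and partners stayed within 1.5 times of those reported. Counts of the marker lists, the neighbours and the transcription factors alone were not rerun. Of the values of other named genes, 1804 kept direction and side of the threshold and 126 lost the call. ITIH3, FGA and ALB stayed at or near 3 reads per library, where no difference can be shown at this depth. Coding length in place of transcript length, an alternative chosen after seeing the data, moved TF in shBMAL1 from 4.26 to 41.0 per kilobase. With other lengths, 21 levels per kilobase moved beyond the replicate spread and 39 did not.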

Other observations

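Genes whose profile over the 9 libraries was nearest to that of a member were sought among 15599 genes, by the Euclidean distance of log2 counts from the control mean. Y-linked TTTY transcripts were left out of this search after it was run. Nearest to ITIH2 was MMP13, a collagenase, at a distance of 0.925, with 184, 165 and 162 normalised counts in shControl, 621, 558 and 551 in shARNT, and 5017, 4998 and 4736 in shBMAL1. Nearest to ITIH4 were MMP7, another matrix protease (distance 0.716), and UGT2A3, a glucuronosyltransferase (0.745). TF was nearest to HABP2 (0.799), which encodes a plasma serine protease that binds hyaluronan, and to NR1H4 (0.812). HABP2 had 785, 854 and 627 counts in shControl, 1775, 1786 and 1298 in shARNT, and 6188, 5132 and 5572 in shBMAL1. SERPINA1 was nearest to LOC100507487 (0.619) and BRINP1 (0.660), which were also lowest in shARNT and highest in shBMAL1. LBP was nearest to ACSM2A (1.79) and RERG (1.81), FGB to GJB1 (2.04) and AQP3 (2.30), and FGG to AQP3 (2.43) and MMP13 (2.45), at larger distances that rest on low counts. GJB1, the liver gap junction protein connexin 32, was also second nearest to ITIH2 (1.29). AQP3, a water and glycerol channel of the kidney collecting duct, had 28.2, 24.0 and 24.3 counts in shControl, 47.7, 102 and 69.6 in shARNT, and 689, 677 and 544 in shBMAL1. These genes were picked for their likeness, so their values are a description.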
